A study of Mus musculus with 12 samples.

Results

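The Mex3 family has 4 mouse genes, Mex3a, Mex3b, Mex3c and Mex3d, and its RNA levels were followed over 4 populations of cells sorted from colon adenomas. Members were taken as every probe set (a group of array probes that reports 1 transcript) whose only gene symbol in the platform annotation was one of these names. This gave 4 probe sets for 3 of the 4 genes, among 28898 probe sets with a single symbol and 17097 symbols. Mex3a had 2 probe sets, 1455529_PM_at and the dimmer 1436018_PM_at. Mex3b had 1 (1437152_PM_at) and Mex3c had 1 (1454612_PM_at). Mex3d had none by this rule and was not analysed here.

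MEX3 proteins bind RNA through KH domains and carry a RING domain at the other end of the protein, the kind of domain that lets ubiquitin ligases tag their targets, so that they can act on the translation or the stability of bound mRNAs. They are named after a C. elegans protein that sets cell fate in the embryo. In the mouse intestine Mex3a has been described as a marker of slowly dividing progenitors within the Lgr5+ compartment, and human MEX3A has been reported to lower the intestinal transcription factor CDX2. Lgr5, a receptor of the Wnt pathway, is the standard marker of crypt base stem cells and of stem-like adenoma cells.

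Per the labels, colon adenoma cells of 3 mice (MKL347, MKL358 and MKL367) were split by 2 markers, Mex3a and Lgr5, into cells with both (Mex3a+ Lgr5+), with 1 of them (Mex3a+ Lgr5- or Mex3a- Lgr5+) and with neither (Mex3a- Lgr5-), and 1 array was run for each population of a mouse, 12 in all. All mice are written ki/+ in the labels, which do not say what was knocked in, how the adenomas arose, how either status was read, or the age and strain of the animals. Each sample pooled different adenomas of 1 mouse, with 500 sorted cells for MKL358 and 2000 for MKL347 and MKL367, and 25 ng of total RNA was amplified before labelling. A level is given below as the deposited log2 signal, on which a difference of 1 unit is a 2-fold change, and levels are compared between populations within a probe set, never between probe sets. In sorted bulk cells a lower share of cells with a transcript and less of it per cell cannot be told apart.

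The array medians lay between 4.86 and 4.92, and the correlation across probe sets between arrays of 1 population was 0.984 to 0.994. All 8 epithelial markers were above the dim level (the 40th percentile of all values, 4.40), with mean signals of 10.1 to 10.5 on the 6 Mex3a+ arrays and 10.7 to 10.9 on the 6 Mex3a- arrays. Of the 8, 7 were called lower in Mex3a+ cells (median log2 difference of the 8 -0.33), Cdx1 by the most (-1.31), beside 16.9% of all genes called lower in that comparison. Krt18 went the other way, by 0.11 and in each of the 3 mice (adjusted p = 0.245, with the mouse as a block 0.0295). Ptprc and Cd3e of the 8 leukocyte markers and Col1a2, Lum and Pdgfra of the 6 fibroblast markers were dim on every array. The mean of the leukocyte markers ranged over 5.58 to 5.995 in Mex3a+ Lgr5+, 5.77 to 6.24 in Mex3a+ Lgr5-, 5.66 to 6.53 in Mex3a- Lgr5+ and 5.94 to 6.74 in Mex3a- Lgr5- cells. Of these markers the neutrophil genes S100a8 (-1.14, adjusted p = 0.269, with the mouse as a block 0.00110) and S100a9 (-0.85, 0.254 and 0.00225) had lower values with Mex3a+ status in each of the 3 mice. Among the rest tested, Lyz2 (-0.027) and Csf1r (-0.075) were slightly lower, and Cd79a (0.041) and Cd68 (0.026) slightly higher. None of those was called by either fit. The mean of the leukocyte markers includes Lyz2, with a mean signal of 11.7, and does not measure a share of leukocytes. The mean of the fibroblast markers lay between 4.45 and 4.78 on 11 of the 12 arrays and reached 6.05 on the Mex3a- Lgr5+ array of MKL367. The endothelial markers had means of 4.00 to 4.40, with Tek dim on every array, and the 3 glial and neuronal markers on the array 4.25 to 4.54. Both endothelial markers tested had higher values with Mex3a+ status in each of the 3 mice. Cdh5 rose by 0.295 (adjusted p = 0.0932, with the mouse as a block 0.0454) and Pecam1 by 0.18 (0.203 and 0.0623). The part of these shifts in the results below was not tested, other than by leaving out arrays.

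Mex3a, the gene used for the sort, differed in the direction of the labels on both probe sets, which checks the sort. On 1455529_PM_at the Mex3a+ Lgr5+ signals were 6.86 in MKL358, 6.89 in MKL347 and 7.31 in MKL367. The Mex3a+ Lgr5- signals were 6.78, 7.03 and 6.91 in the same order of mice. In Mex3a- Lgr5+ cells the signals were 6.57, 6.28 and 6.47. Mex3a- Lgr5- cells had 5.94, 5.93 and 6.49, the lowest mean of the 4 populations, although in MKL367 the value was close to that of Mex3a- Lgr5+ cells. All 6 Mex3a+ arrays thus lay above all 6 Mex3a- arrays, a separation in this direction that 4.32% of the 19883 probe sets tested showed. On every Mex3a- array the signal of this probe set was above the dim level.

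**Figure D1:**
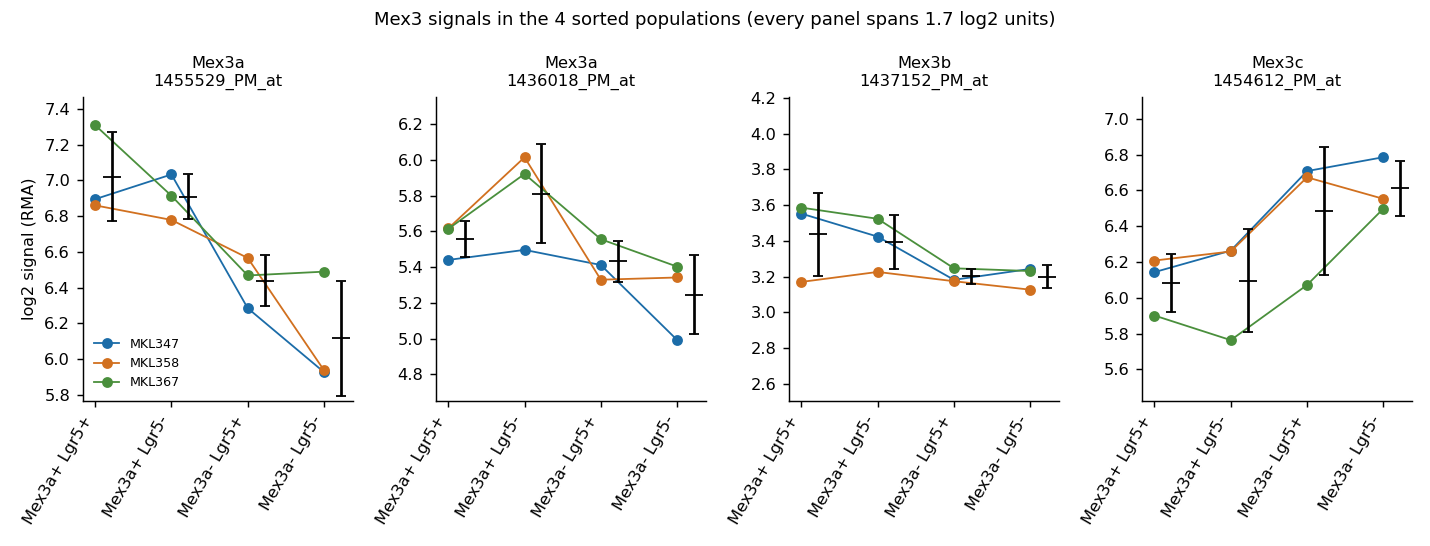
Log2 signal (RMA) of each Mex3 probe set in the 4 sorted populations, 1 point per array and 1 line per mouse, with the population mean and SD (n = 3) as black bars; every panel spans the same number of log2 units. Both Mex3a probe sets and the dim Mex3b probe set have higher means in the Mex3a+ populations, and Mex3c has lower means there.

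The average Mex3a effect is the mean of both Mex3a+ populations minus the mean of both Mex3a- populations, 6 arrays against 6, tested with limma and Benjamini-Hochberg adjustment over all 19883 probe sets that exceeded the dim level on at least 3 arrays. For Mex3a 1455529_PM_at it was 0.69 (SE 0.121, 95% interval 0.42 to 0.95, 1.61-fold, adjusted p = 0.00177), with 0.57 in MKL358, 0.86 in MKL347 and 0.63 in MKL367. At the called threshold of an adjusted p under 0.05, 25.3% of all probe sets passed in this comparison, 9.59% higher and 15.7% lower in Mex3a+ cells. A larger rise was seen for 2.52% of the probe sets tested. Without MKL347 the difference was 0.60 and its adjusted p 0.0675, so that the call ended. With the mouse entered as a block, which uses the pairing of the 4 arrays of an animal, the adjusted p was 9.28e-05, and without MKL347 it was then 0.00384.

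The dimmer Mex3a probe set, 1436018_PM_at, changed less and in a different order of populations. Its Mex3a+ Lgr5+ signals were 5.62, 5.44 and 5.61 in MKL358, MKL347 and MKL367, and the Mex3a+ Lgr5- signals were 6.01, 5.50 and 5.92. Mex3a- Lgr5+ cells had 5.33, 5.41 and 5.56, and Mex3a- Lgr5- cells 5.34, 4.99 and 5.40. The Mex3a+ and Mex3a- arrays overlapped over all 12. The average Mex3a effect was 0.34 (SE 0.105, 95% interval 0.11 to 0.57, adjusted p = 0.0318), with 0.48, 0.27 and 0.29 in the 3 mice. This call was lost without MKL358 (adjusted p = 0.155), without MKL347 (0.0502) or without MKL367 (0.152), while with the mouse as a block it was kept (0.00370) and also without any 1 mouse (0.0130 to 0.0310). Without the block it was lost too (0.0579 to 0.0787) without the Mex3a+ Lgr5+, Mex3a+ Lgr5- or Mex3a- Lgr5+ array of MKL358, either Mex3a- array of MKL347, or either Mex3a+ array of MKL367. Over the 12 arrays the values of both Mex3a probe sets correlated at r = 0.645 after centring within each mouse and at 0.630 without centring, a description over arrays that share mice and populations.

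Within the Lgr5+ cells, Mex3a 1455529_PM_at was 0.58 (SE 0.171) higher in Mex3a+ than in Mex3a- cells, by 0.29, 0.61 and 0.84 in MKL358, MKL347 and MKL367, and the arrays did not overlap. This missed the threshold (adjusted p = 0.0634, with 6.9% of all probe sets called and 12.4% without overlap in that direction) and passed it with the mouse as a block (0.00819, 21.2% called). The call with the block was lost without MKL347 (0.0575) or MKL367 (0.0773). Within the Lgr5- cells the difference was 0.79 (adjusted p = 0.0103, 15.3% of all probe sets called), by 0.84, 1.11 and 0.42, again with no overlap (11.5% of all probe sets in that direction). Without MKL347 the value in Lgr5- cells was 0.63, with an adjusted p of 0.193. For 1436018_PM_at the difference was 0.12 in Lgr5+ cells (adjusted p = 0.702, with the block 0.492) and 0.56 (SE 0.149) in Lgr5- cells (adjusted p = 0.0255), where its arrays did not overlap and the mice gave 0.67, 0.50 and 0.52. The call in Lgr5- cells was lost without MKL358 (0.0977), MKL347 (0.0762) or MKL367 (0.164), or when the Mex3a+ Lgr5- array of MKL358 (0.0841) or MKL367 (0.104) or the Mex3a- Lgr5- array of MKL347 (0.102) was left out. The difference between both Mex3a effects, the interaction, was -0.21 (95% interval -0.74 to 0.32) for 1455529_PM_at and -0.44 (-0.90 to 0.020) for 1436018_PM_at, with an adjusted p of 0.999936 for each. At an unadjusted p under 0.05, 0 of the 3 probe sets tested passed for the interaction in the fit without the block and 1 with it, 1436018_PM_at (adjusted p = 0.494), whose interaction was negative in each of the 3 mice. Its unadjusted p with the block ranked 620 of the 19883 probe sets tested, smallest first. In the interaction 0% of all probe sets were called by either fit.

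No call was made for Mex3a by Lgr5 status. The average Lgr5 effect, Lgr5+ minus Lgr5- cells, was 0.22 (SE 0.121, 95% interval -0.046 to 0.48) for 1455529_PM_at, positive in each of the 3 mice, with an adjusted p of 0.935 and 0.332 with the block. For 1436018_PM_at it was -0.034 (-0.26 to 0.20, adjusted p = 0.997). In this comparison 0 of the 3 Mex3 probe sets tested with limma were called by either fit, and 0 passed an unadjusted p under 0.05 without the block and 1 (1455529_PM_at) with it. That p with the block ranked 2470 of the 19883 probe sets tested, smallest first, so many others had a smaller one. Of all probe sets 0.0352% were called, and 1.62% with the block. Within Mex3a+ cells the Lgr5 difference was 0.11 for 1455529_PM_at and -0.25 for 1436018_PM_at, and the latter was negative in each of the 3 mice. Within Mex3a- cells these were 0.32 and 0.19. None of these 4 values was called by either fit (adjusted p from 0.301 to 0.999946), in comparisons where 0% and 0.0352% of all probe sets were called in Mex3a+ and Mex3a- cells, or 0.0453% and 1.5% with the block. Lgr5 itself, 1.09 higher in the Lgr5+ part of the Mex3a+ cells, had an adjusted p of 0.663 there, and 0.0287 with the block.

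Ordered by mean, Mex3a 1455529_PM_at stood at 7.02 ± 0.250 (SD, n = 3) in Mex3a+ Lgr5+, 6.91 ± 0.127 in Mex3a+ Lgr5-, 6.44 ± 0.143 in Mex3a- Lgr5+ and 6.12 ± 0.322 in Mex3a- Lgr5- cells. Of the neighbours in this order, Mex3a+ Lgr5- against Mex3a- Lgr5+ cells differed by 0.47 without overlap of arrays (10.1% of all probe sets in this direction), with an adjusted p of 0.138, and 0.0280 with the block, where 4.16% and 20% of all probe sets were called. That call with the block was lost without MKL347 (0.238) or MKL367 (0.0711). The other neighbours were called by neither fit, though with the block the 95% interval of Mex3a- Lgr5+ minus Mex3a- Lgr5- cells (0.029 to 0.61) left out 0 before adjustment. Its unadjusted p ranked 2236 of the 19883 probe sets tested, smallest first. Mex3a+ Lgr5+ against Mex3a- Lgr5- cells, the ends of the order, differed by 0.90 (1.87-fold, adjusted p = 0.00410), a comparison in which 17.7% of all probe sets were called and 14.3% were higher without overlap, and without MKL347 the adjusted p was 0.0999 (with the block 0.00477). For 1436018_PM_at the mean was highest in Mex3a+ Lgr5- cells, 5.81 ± 0.276 (SD, n = 3), followed by 5.56 ± 0.101 in Mex3a+ Lgr5+, 5.43 ± 0.115 in Mex3a- Lgr5+ and 5.25 ± 0.221 in Mex3a- Lgr5- cells. None of its neighbours was called by either fit, though with the block the 95% interval of Mex3a+ Lgr5+ minus Mex3a+ Lgr5- cells (-0.50 to -0.013) left out 0 before adjustment. The unadjusted p of that difference ranked 1383 of the 19883 probe sets tested, smallest first. For 1436018_PM_at, Mex3a+ Lgr5+ minus Mex3a- Lgr5- cells was 0.31 (adjusted p = 0.185, with the block 0.0489 and 32.2% of all probe sets called). Mex3a+ Lgr5- minus Mex3a- Lgr5+ cells was 0.38 with overlap of arrays (0.168, with the block 0.0308). With the block, the first call was lost without any 1 mouse (0.0681 to 0.254). The second was lost without MKL358 (0.261) or MKL367 (0.167). The Mex3a+ population with the higher mean was not the same on both probe sets.

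Lgr5, the other sorted marker, is the closest reference for these sizes. Its brighter probe set (1450988_PM_at) had means of 8.38 in Mex3a+ Lgr5+, 7.29 in Mex3a+ Lgr5-, 8.02 in Mex3a- Lgr5+ and 6.01 in Mex3a- Lgr5- cells. Its average Lgr5 effect was 1.55 (SE 0.139, adjusted p = 0.00124). Lgr5 also differed by Mex3a status, by 0.82 on average (adjusted p = 0.00148). The difference was 1.27 in Lgr5- cells (adjusted p = 0.00242) and 0.36 in Lgr5+ cells (0.330, with the block 0.106). The interaction, -0.92, was called by neither fit. On the dimmer Lgr5 probe set, 1444519_PM_at, the average effects were 1.24 by Lgr5 and 0.61 by Mex3a status. Its Mex3a difference was 0.75 in Lgr5- and 0.46 in Lgr5+ cells (the latter with adjusted p = 0.133, with the block 0.0134). Without MKL347 the calls of both average effects of 1450988_PM_at ended, at adjusted p-values of 0.361 by Lgr5 status and 0.0709 by Mex3a status. With the block both held without that mouse (0.00210 and 0.00178). Over the 12 arrays Mex3a 1455529_PM_at and the brighter Lgr5 probe set correlated at r = 0.701 after centring within each mouse. For Mex3a 1436018_PM_at the value was 0.395. Both genes were used for the sort, so these values describe populations that were split by them.

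The 250 bases before the Mex3a start site are shown because Mex3a is the sorted gene and the member with the largest difference. Mex3a lies on chromosome 3 (GRCm38.p6, chr3:88531946-88541394, plus strand), and the stretch is chr3:88531696-88531945 from RefSeq, written 5′ to 3′ with its single GC box (GGGCGG) in capitals.
Mex3a: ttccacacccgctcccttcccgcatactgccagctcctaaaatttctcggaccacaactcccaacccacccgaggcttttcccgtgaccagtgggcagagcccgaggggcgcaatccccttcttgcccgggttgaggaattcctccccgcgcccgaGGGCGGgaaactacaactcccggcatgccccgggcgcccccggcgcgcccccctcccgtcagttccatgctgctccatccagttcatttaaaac
It holds 64% G and C and 19 CpG dinucleotides, against medians of 52.4% and 6 over 32851 such windows before mouse start sites. Of these windows 32.7% hold GGGCGG on either strand. The letters CTTTGA (TCF/LEF, 13.8% of windows), CACGTG (E-box, 6.02%) and TTTATG (Cdx, 10.8%) were searched on both strands and do not occur in this window. Mex3b (chr7:82867333-82871576) has 68.4% G and C, 22 CpG dinucleotides and 3 GC boxes, 2 of them overlapping, in its own 250 bases, and none of the other 3 motifs. The data hold no measurement at either promoter.

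Mex3b, which has been reported to bind 3′ regulatory parts of immune mRNAs and to act with the receptor Tlr3, gave a signal under the dim level on all 12 arrays, so its values lie near the floor of the array. In Mex3a+ Lgr5+ cells they were 3.17, 3.55 and 3.59 in MKL358, MKL347 and MKL367, and in Mex3a+ Lgr5- cells 3.23, 3.42 and 3.52. They were 3.17, 3.18 and 3.25 in Mex3a- Lgr5+ cells and 3.13, 3.24 and 3.23 in Mex3a- Lgr5- cells. The higher values were those of MKL347 and MKL367 in Mex3a+ cells, while all 4 values of MKL358 lay between 3.13 and 3.23, and the groups overlapped. Mex3b was not tested in the fit with the filter. When all 28898 probe sets were tested, its average Mex3a effect was 0.21 (SE 0.0726, adjusted p = 0.0633, with 17.4% of probe sets called), by 0.05, 0.28 and 0.32 in the 3 mice. With the block added to this fit, an alternative chosen after the values had been seen, the adjusted p was 0.00669, with 28.8% called. The average Lgr5 effect was 0.023 (adjusted p = 0.999, with 0.0208% called). Leaving out the Mex3a+ Lgr5+ array of MKL358 moved the difference in Lgr5+ cells from 0.24 to 0.37 and that between Mex3a+ Lgr5+ and Mex3a- Lgr5- cells also to 0.37.

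Mex3c, a family member reported to raise Igf1 translation and to ubiquitinate the viral RNA sensor encoded by Ddx58, was the member that fell in Mex3a+ cells. Its signals were 6.21, 6.14 and 5.90 in the Mex3a+ Lgr5+ cells of MKL358, MKL347 and MKL367, and 6.26, 6.26 and 5.76 in Mex3a+ Lgr5- cells. Mex3a- Lgr5+ cells had 6.67, 6.71 and 6.07, and Mex3a- Lgr5- cells 6.55, 6.79 and 6.50. In MKL367 the Mex3a- Lgr5+ value lay below 4 of the 6 Mex3a+ values, so the 6 arrays of each status overlapped, but within each mouse both Mex3a+ values were below both Mex3a- values. The average Mex3a effect was -0.46 (SE 0.133, 95% interval -0.75 to -0.17, 1.37-fold lower, adjusted p = 0.0254), with -0.38, -0.54 and -0.45 in the 3 mice. A larger fall was seen for 7.63% of the probe sets tested.

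Both fits called Mex3c, but only with the mouse as a block did the call hold whichever mouse was left out. Without the block it was lost without MKL358 (-0.50, adjusted p = 0.0654) or MKL347 (-0.42, 0.191), and without any 1 of 5 single arrays: the Mex3a- Lgr5+ array of MKL358 (0.0615) or MKL347 (0.0658), the Mex3a- Lgr5- array of MKL347 (0.0614), or either Mex3a+ array of MKL367 (0.0653 and 0.0632). With the mouse as a block the SE was 0.0786 and the adjusted p 0.000475, and it was 0.00227, 0.0170 and 0.00413 without MKL358, MKL347 and MKL367. Of all probe sets 39.9% were called with the block. Without the Mex3a- Lgr5+ array of MKL367, the array with the high fibroblast markers, the fall was -0.56 (adjusted p = 0.00559). The median shift of all probe sets in this comparison was -0.012 in the deposited values and -0.046 after median centring, and Mex3c stayed lower under each scaling (-0.44 after a further quantile normalization and -0.49 after median centring).

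**Figure D2:**
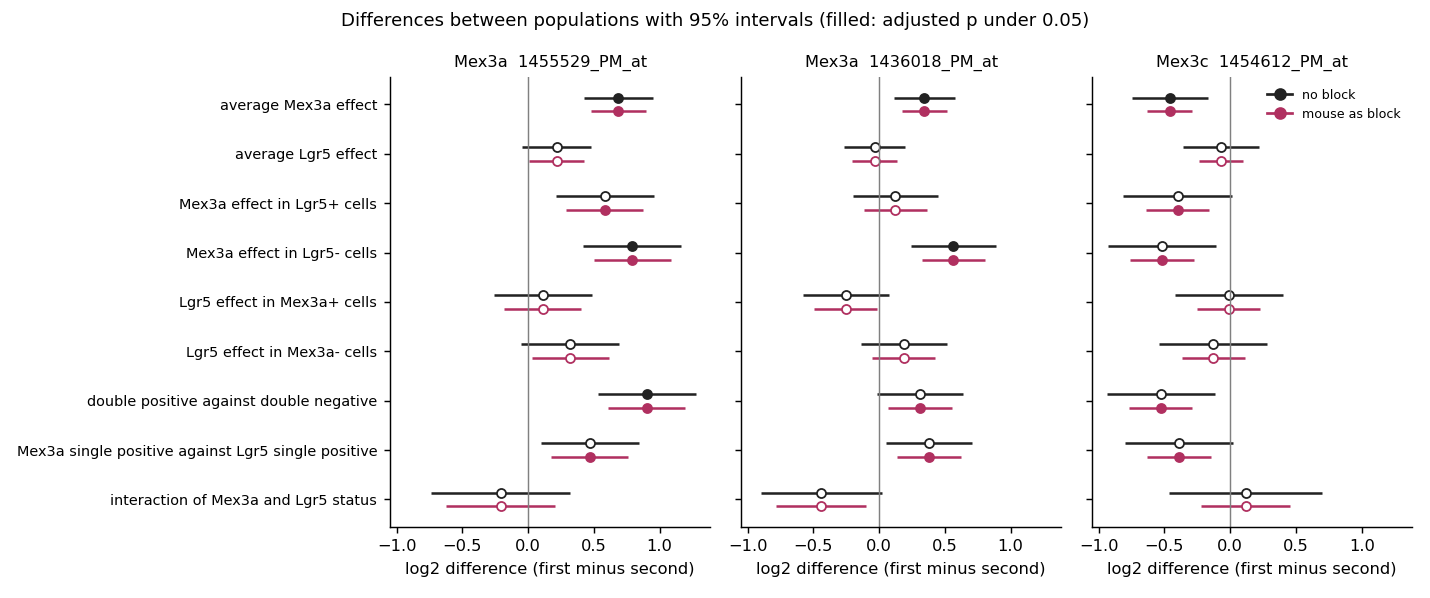
Log2 differences of the 3 Mex3 probe sets tested, in 9 comparisons (first population minus second), as points with 95% intervals, from limma without a block (black) and with the mouse as a block (red); filled points have an adjusted p under 0.05. The differences by Mex3a status sit above 0 for Mex3a and below 0 for Mex3c, and those by Lgr5 status are open points in both fits.

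Mex3c differed by -0.40 in Lgr5+ cells (adjusted p = 0.246, with the block 0.0214) and by -0.52 in Lgr5- cells (0.0874, with the block 0.00351 and 30.7% of all probe sets called). The call with the block was lost in Lgr5+ cells without MKL358 (0.0767) or MKL347 (0.246), and in Lgr5- cells without MKL367 (0.0542). The mice gave -0.47, -0.57 and -0.17 in Lgr5+ cells and -0.29, -0.52 and -0.74 in Lgr5- cells. The arrays did not overlap in Lgr5- cells, as for 19.8% of all probe sets in that direction, and overlapped in Lgr5+ cells. The interaction was 0.12 (95% interval -0.46 to 0.70, adjusted p = 0.999936), so a difference between these 2 values was not shown. By Lgr5 status Mex3c differed by -0.070 on average (95% interval -0.36 to 0.22), by -0.011 in Mex3a+ cells and by -0.13 in Mex3a- cells, none of them called by either fit. Ordered by mean, Mex3a- Lgr5- cells had 6.61 ± 0.153, Mex3a- Lgr5+ cells 6.48 ± 0.358, Mex3a+ Lgr5- cells 6.10 ± 0.288 and Mex3a+ Lgr5+ cells 6.08 ± 0.162. Of the neighbours the middle pair was called with the block (adjusted p = 0.0267, without it 0.261), a call lost without any 1 mouse (0.0695 to 0.164), and the others were called by neither fit. The ends of the order differed by -0.53 without overlap, as for 17.3% of all probe sets in that direction (adjusted p = 0.0755, with the block 0.00271 and 32.2% called, but 0.0571 without MKL347).

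**Figure D3:**
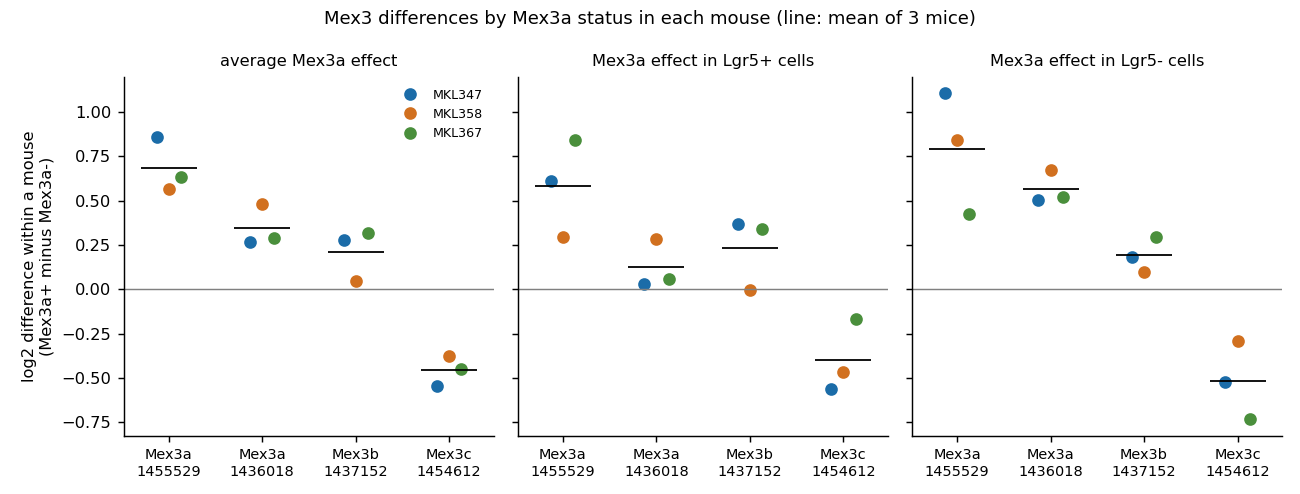
Log2 difference between Mex3a+ and Mex3a- cells within each of the 3 mice, for the 4 Mex3 probe sets, on average and within Lgr5+ and Lgr5- cells; the line is the mean of the 3 mice. On average every mouse lies above 0 for both Mex3a probe sets and for Mex3b, and below 0 for Mex3c.

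In all, 3 of the 3 Mex3 probe sets tested were called by Mex3a status on average, 2 higher (both Mex3a) and 1 lower (Mex3c), beside the 25.3% of all probe sets called. The 2 calls of Mex3a, the gene used for the sort, check the sort and are not a result about the family. That leaves Mex3c as the only tested member not used for the sort. By Lgr5 status 0 of 3 were called, beside 0.0352% of all probe sets. Across the 12 arrays, centred within each mouse, Mex3a 1455529_PM_at correlated at r = -0.771 with Mex3c and at 0.792 with the dim Mex3b. For Mex3a 1436018_PM_at these values were -0.753 and 0.504. Mex3b and Mex3c correlated at -0.810. These arrays share their mice and the Mex3a sort, so the values describe the same split of populations as the differences above.

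The genes whose profile over the 12 arrays was most like each member were taken from the brightest probe set of each gene, centred within each mouse. For Mex3a they were Irs1 (r = 0.985), an adaptor of insulin and IGF receptors, Aspscr1 (0.984), a tether of glucose transporter vesicles, Ccn1 (0.980), a matrix-associated protein and YAP target, Tpbg (0.975), a membrane glycoprotein that inhibits Wnt signalling, and Dnmt3a (0.974), a DNA methyltransferase. Their average Mex3a effects on the log2 scale were 0.96, 0.70, 1.10, 1.06 and 0.59. For Mex3c they were Blnk (0.983), an adaptor of immune receptors, the mitochondrial acyl-CoA thioesterases Acot9 (0.981) and Acot10 (0.976), Mtdh (0.981) and Arhgef16 (0.978). These had average Mex3a effects of -0.53 for Blnk, -0.90 for Acot9, -0.52 for Acot10, -0.43 for Mtdh and -0.68 for Arhgef16. Acot9 and Acot10 are near-identical copies whose probe sets may share signal. For the dim Mex3b they were Cldn6 (0.968), a claudin of early epithelia, Tet2 (0.965), Cacul1 (0.965), Wdr81 (0.964) and Npb (0.961). Without centring, 1 of the 5 genes stayed among the 5 most alike for Mex3a (Aspscr1), 1 for Mex3c (Blnk) and 2 for Mex3b (Cldn6 and Cacul1), so the order of such lists depends on that step.

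**Figure D4:**
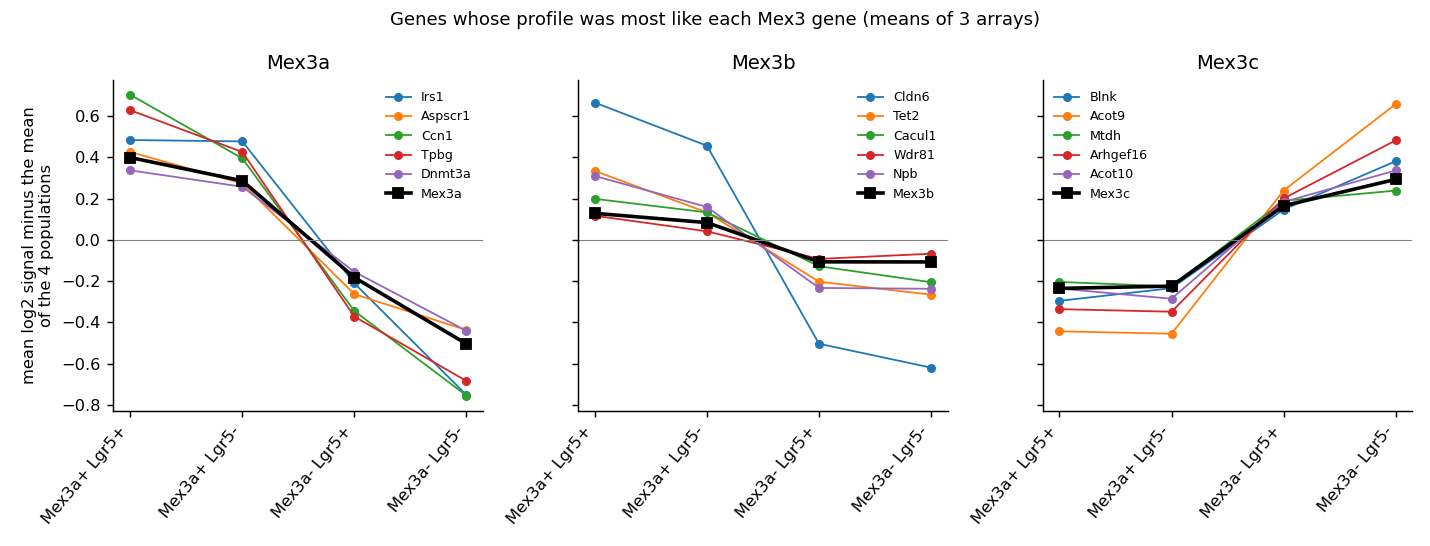
Mean log2 signal of each population (n = 3 arrays) minus the mean of the 4 populations, for Mex3a, Mex3b and Mex3c (black squares) and the 5 genes most like each by correlation within mice. The Mex3a and Mex3b sets fall and the Mex3c set rises from Mex3a+ to Mex3a- populations, since likeness to the member chose them.

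Other RNA-binding proteins with KH domains did not move one way with Mex3a status. Of 31 listed genes 28 were tested, 4 were called higher in Mex3a+ cells, 2 lower and 22 neither, with a median of 0.0049. Over the brightest probe set of all 12598 genes tested, 9.53% were called higher and 16.9% lower, with a median of -0.013. Ascc1, a subunit of an alkylation repair complex, rose by 0.49 (adjusted p = 0.00264), Pcbp4, a poly(C)-binding protein, by 0.33, and Bicc1, a repressor of translation, by 0.28. Khdrbs2 rose by 0.24 and is named because of its call. Akap1, which anchors protein kinase A and mRNAs at mitochondria, fell by 0.79 (adjusted p = 0.000808) and Pno1, a factor of small ribosomal subunit assembly, by 0.47. With the block 5 were called higher and 4 lower, beside 15.7% and 25.2% of all genes. Without MKL347 1 gene of the list was called higher, and without MKL367 0 (and 1 lower). The count was 2 higher without the Mex3a+ Lgr5+, Mex3a- Lgr5+ or Mex3a- Lgr5- array of MKL347, or without either Mex3a+ array of MKL367. The share of all genes called with a mouse or array left out is not given here, so these counts have no background.

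RNA-binding ubiquitin ligases, the proteins that share with MEX3 both kinds of activity, held no call by limma without the block. Of 14 listed genes 10 were tested and 0 were called, beside 9.53% of all genes called higher and 16.9% lower. The median was 0.056. An unadjusted p under 0.05 was passed by 4, a level for which the share of all genes is not given here. With the block 1 was called higher, Unk (0.24, adjusted p = 0.0274), and 3 lower, Trim25 (-0.35, 0.00183), Mkrn1 (-0.24, 0.0154) and Zfp598 (-0.28, 0.0280), beside 15.7% of genes called higher and 25.2% lower. Trim25 ubiquitinates the sensor encoded by Ddx58, and Zfp598 marks collided ribosomes. Without MKL358 and without the block 1 gene was called higher and 1 lower, a fit for which the share of all genes called is not given here. Unkl had 0.20 (adjusted p = 0.128, with the block 0.0882).

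Of the other RNA-binding regulators of stem cells and mRNA decay, 20 listed and 14 tested, 5 were called higher, 2 lower and 7 neither, with a median of 0.063, beside 9.53% of all genes called higher and 16.9% lower. Msi1, a Musashi protein and marker of intestinal stem cells, rose from 7.09 ± 0.354 and 6.92 ± 0.328 in Mex3a- Lgr5+ and Mex3a- Lgr5- cells to 7.92 ± 0.132 and 7.79 ± 0.384 in Mex3a+ Lgr5+ and Mex3a+ Lgr5- cells (SD, n = 3), an average of 0.85 (SE 0.160, adjusted p = 0.00250). Zfp36l1 and Zfp36l2, which speed the decay of AU-rich mRNAs, moved in opposite directions, by 0.66 (adjusted p = 0.00118) and -0.75 (0.0115). Tia1, a stress granule protein, rose by 0.34, and Ybx1, a cold shock domain protein, fell by 0.23. Msi2 (0.21) and Pum2 (0.18) complete the called genes and are named for that reason. Without MKL347 0 genes of this list were called higher and 1 lower, and without MKL367 2 were called higher. Leaving out the Mex3a- Lgr5+ array of MKL358, or any 1 of the 8 arrays of MKL347 and MKL367, left 2 or 3 called higher. The share of all genes called in fits with a mouse or array left out is not given here.

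**Figure D5:**
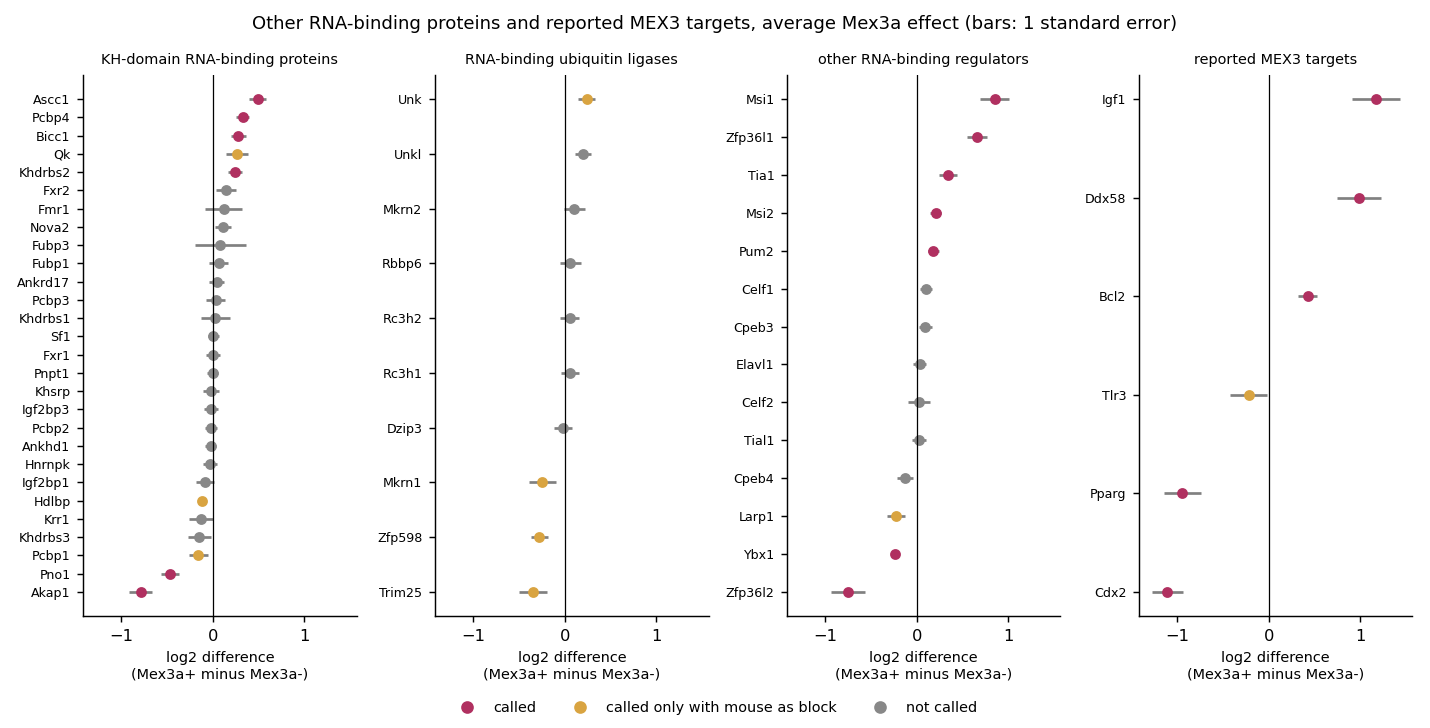
Average Mex3a effect (log2, Mex3a+ minus Mex3a-) of every tested gene in 4 lists, as points with 1 standard error either side; red, called without a block; yellow, called only with the mouse as a block; grey, called by neither. Points lie on both sides of 0 in each list.

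Of 6 genes tested that have been reported in the literature as targets or partners of MEX3 proteins, 3 were called higher and 2 lower by Mex3a status, beside 9.53% of all genes called higher and 16.9% lower. The signals are RNA levels, so a reported action on translation or on a protein was not measured here. Cdx2, the intestinal transcription factor, had means of 7.06 ± 0.199 in Mex3a+ Lgr5+, 6.92 ± 0.301 in Mex3a+ Lgr5-, 7.86 ± 0.285 in Mex3a- Lgr5+ and 8.33 ± 0.522 in Mex3a- Lgr5- cells (SD, n = 3). It fell by 1.11 (SE 0.174, adjusted p = 0.000926), lower in each of the 3 mice. Pparg, a nuclear receptor of lipid metabolism, fell by 0.95 (adjusted p = 0.00523). Igf1, the growth factor whose translation Mex3c is reported to raise, rose by 1.17 (SE 0.265, adjusted p = 0.00702), with means of 7.28 and 6.52 in Mex3a+ Lgr5+ and Mex3a+ Lgr5- cells against 5.94 and 5.51 in Mex3a- Lgr5+ and Mex3a- Lgr5- cells. Ddx58, the RNA sensor, rose by 0.99 (adjusted p = 0.0110), and Bcl2, an inhibitor of apoptosis reported as a target of human MEX3D, by 0.43 (0.0108). Tlr3, an RNA receptor, had -0.22 (adjusted p = 0.466, with the block 0.00436). Without MKL347 0 of these genes were called higher and 1 lower, and without MKL367 1 was called higher. The share of all genes called in those fits is not given here. The epithelial markers other than Krt18 fell with the same status (7 of 8, beside the 16.9% above), and their part in the fall of Cdx2 was not tested.

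By Lgr5 status 0 genes of the 4 lists were called by limma without the block (0.0397% of all genes were). An unadjusted p under 0.05 was passed by 0 of 28 KH-domain genes, 0 of 10 ligases, 4 of 14 other regulators and 2 of 6 reported targets. The share of all genes at that unadjusted level is not given here. With the block 1 was called, Igf1, higher by 0.59 in Lgr5+ cells (adjusted p = 0.0359, with 1.79% of all genes called).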

How the data were processed

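RNA of 12 samples was hybridised to Affymetrix mouse arrays. The deposited values are log2 signals that the authors obtained with RMA (per the submitters' processing notes), whose software is not given in the sources read for this account. Because values were scaled across arrays, a difference is relative to the other probe sets. Of 45141 probe sets, 28898 had 1 gene symbol in the platform annotation, 551 several and 15692 none (104 controls among them); only the first were tested. Probe sets above the 40th percentile of all values on at least 3 arrays (19883) were fitted with limma 3.58.1 (R 4.3.3), 1 mean per population, an intensity trend and 2-sided tests, in 9 comparisons, with Benjamini-Hochberg adjustment over all probe sets tested. Errors are limma's standard errors unless marked SD, and the number of arrays limits the precision. The fit was tested on simulated data.

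Arrays of a mouse come from the same animal: after removing population means they correlated at 0.345 to 0.689 across probe sets (18 pairs), and those of different mice at -0.697 to 0.154 (48 pairs). Over all probe sets the standard error of the effect of Mex3a status had a median of 0.0927, and 0.0739 with the mouse as a block.

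Members and lists were chosen with earlier results of these data known, so no list is independent support. Named were all Mex3 probe sets, Lgr5, the 5 genes most like each member, the 5 genes of smallest p in each list of RNA-binding proteins and all reported targets; list genes use their brightest probe set. Alternatives were the block, filter, scaling, probe set summary, intensity trend, weights per array, and leaving out a mouse or an array. The block without the filter, and with each mouse left out, were added after seeing the data. Promoters and positions are from RefSeq (GRCm38.p6).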

Additional observations from a re-analysis of the deposited data

How the results depend on the processing

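No Mex3 difference past the threshold changed direction under any alternative run. For Mex3a 1455529_PM_at the average Mex3a effect ranged from 0.60 (without MKL347, adjusted p = 0.0675) to 0.78 when a mouse or an array was left out. For Mex3c the average Mex3a effect ranged from -0.56 to -0.38 in the same way and missed the threshold in 7 of these 15 fits, at adjusted p-values of 0.0614 to 0.191. With the mouse as a replicate block the values were the same, 0.69 for Mex3a 1455529_PM_at (adjusted p = 9.28e-05) and -0.46 for Mex3c (0.000475). For 1436018_PM_at the average Mex3a effect ranged from 0.28 to 0.42 over the left-out mice and arrays and missed the threshold in 10 of them. Array weights brought the Mex3a difference in Lgr5+ cells (0.70, adjusted p = 0.00948) and that between Mex3a+ Lgr5- and Mex3a- Lgr5+ cells (0.54, 0.0435) past the threshold for 1455529_PM_at. With 3 arrays per population, differences as small as those by Lgr5 status are limited by the number of arrays, and Mex3b by its dim signal.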
